A study of Mus musculus with 4 samples.

Results

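Wnt and beta-catenin pathway genes were read in microglia, the resident macrophages of the brain, from Arid1a conditional knockout mouse embryos and from their floxed controls. Arid1a belongs to BAF (mammalian SWI/SNF), a complex that moves nucleosomes. The set holds 50 named genes that cover Wnt receptors, ligand secretion, the destruction complex, the TCF/LEF factors and feedback inhibitors, out of 18526 genes listed in the deposited tables. They were chosen by name as parts of the pathway, with earlier results of these data known. Of the 50 genes, 40 had counts in all 3 libraries and 36 of these had enough reads to be tested. Ror2, Wnt4, Lef1 and Nkd1 lay under the low-count filter, Fzd5, Fzd8, Fzd9 and Wnt5b had counts beside control 6 alone, and Wnt9a, Wnt11, Axin2, Nkd2, Sfrp2 and Notum were not analysed here.

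The samples came from C57BL/6 embryos at embryonic day 14, and microglia were purified by fluorescence-activated sorting. The protocol names cortex and the design text telencephalon, and the design text speaks of triplicates where the labels give 2 samples a genotype. The labels list 2 conditional knockouts of Arid1a (genotype Arid1acKO, replicates 1 and 2) and 2 controls with floxed alleles (genotype Arid1afl/fl, replicates 5 and 6). Counts were analysed for knockout replicate 2 and for both controls, so knockout values carry no replicate error, and knockout replicate 1 was not analysed here. The Cre line that removed Arid1a, the cells it acts in, and whether a sample was 1 embryo or a pool are not given in the sources used here, so the spread between controls may be technical.

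Wnt proteins are secreted lipid-modified ligands. They are acylated by Porcn, carried out of the cell by Wls, and bound by Frizzled receptors with the co-receptors Lrp5 and Lrp6. Without ligand, a complex of Axin, Apc, Csnk1a1 and Gsk3 marks beta-catenin (Ctnnb1) for destruction, and with ligand beta-catenin builds up and joins TCF/LEF factors on target genes. Rnf43 and Znrf3 are membrane ubiquitin ligases that remove Frizzled receptors from the cell surface, and R-spondins acting through Lgr receptors block them. In microglia, beta-catenin signalling has been tied to the balance between resting and pro-inflammatory states.

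The libraries held 17262261 counted reads in the knockout, 18608979 in control 5 and 13774075 in control 6. Arid1a itself had 68.8 CPM (reads scaled to library size) in the knockout library, against 120 ± 15.1 CPM in controls (SD, n = 2), the direction of the label. Its log2 fold change of -0.80 (SE 0.41) did not pass the test (adjusted p = 0.901, edgeR quasi-likelihood). CPM values are scaled by TMM factors throughout, and 1 read was worth 0.0547, 0.0558 and 0.0740 CPM in the knockout library, control 5 and control 6. Among the genes in both tables, 404 had 0 reads in control 5 with 20 or more in each other library, 49 had that pattern in control 6 and 41 in the knockout library. Control 5 thus stood apart in its number of such genes, and values over each control are given beside those over both. The 12 markers of microglia and macrophages were present in every library, with a summed level of 18327 CPM in the knockout beside 24595 and 34074 CPM in controls 5 and 6, and the knockout was the lowest library for 11 of them, including Tmem119, Aif1, Sall1 and Itgam. At an unadjusted p under 0.05, 6 of the 12 were lower in the knockout and none higher, and none passed adjustment. Over all genes tested, the knockout was the lowest library for 31.1%, and 3.54% were lower and 2.46% higher at that unadjusted p. The part of this lower marker level in the values below was not tested.

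None of the 36 genes tested differed between the knockout and the controls at an adjusted p under 0.05 (edgeR quasi-likelihood, Benjamini-Hochberg). Of all 15236 genes tested, 0.0131% were called higher and 0.0263% lower, 0.0394% in all. Fitted log2 fold changes of the 6 tested genes of the destruction complex and beta-catenin lay between -0.86 and 0.43, while Rnf43 and Wnt6, with 0 control reads, lay farthest above 0 and Fzd6, with 0 knockout reads, farthest below. Without adjustment, at p under 0.05, 2 genes of the set lay higher in the knockout, Rnf43 and Wnt6, where 2.46% of all genes did, and 2 lower, Lgr4 and Dvl3, where 3.54% did. The DESeq2 Wald test called 1 gene of the set, Rnf43, and 223 genes in all. The test has 1 residual degree of freedom, which comes from the controls, so the spread of the controls stands in for that of the knockout. In bulk RNA, fewer cells of a kind and less RNA per cell cannot be told apart.

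The knockout was the highest library for 13 of the 36 genes, the lowest for 11 and between the controls for 12. The shares over all genes tested were 38.0%, 31.1% and 30.9%. The median log2 fold change was 0.03, against 0.05 over all genes tested. Setting groups at 0 reads to 3 reads could not move the median of the set, since Rnf43, Wnt6 and Fzd6 stayed on their side of it. Over the 19 genes of the set at a mean of 5 CPM or more it was -0.09, against -0.01 over all genes at that level. Of those 19 genes, 12 lay within 2-fold of each control, where 69.7% of all genes at that level did.

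A distance of 2-fold or more from each control in the same direction was found for 10 of the 36 genes. The 7 higher in the knockout were Rnf43, Ryk, Porcn, Wnt2b, Wnt6, Dkk2 and Dkk3, where 9.23% of all genes tested were that far above, and the 3 lower were Lgr4, Fzd6 and Dvl3, where 6.92% were that far below. Several of the higher genes entered the test only through their knockout reads, and genes with few knockout reads are under-represented in the shared tables, so these counts give no support for a direction. The controls themselves stood 2-fold or more apart for 14 of the 36 genes and for 31.7% of all genes tested. The 2 comparisons share the knockout library.

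**Figure D1:**
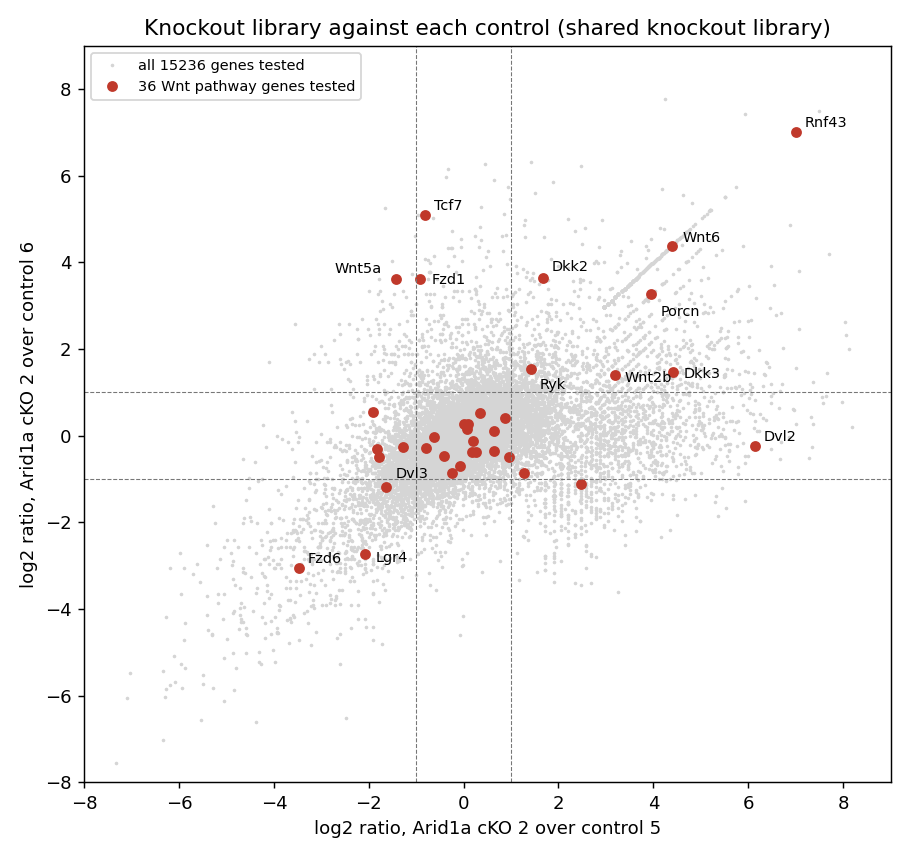
Log2 ratio of the knockout library over control 5 (horizontal axis) and over control 6 (vertical axis), with a prior count of 2 reads, for all 15236 genes tested (grey) and the 36 Wnt pathway genes (red). Dashed lines mark a 2-fold difference. Rnf43 lies at 7.01 on both axes, most genes of the set lie within or near the central square, and Dvl2 and Tcf7 are far from only 1 control.

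Among the genes that set how many receptors stay at the cell surface, Rnf43 stood out. Rnf43 (chromosome 11, 87662722 to 87735539, plus strand, GRCm38) had 282 knockout reads and 0 reads in each control. That was 15.4 CPM (13.7 to 17.3, exact Poisson bounds), at least 79.2-fold above the control mean with 3 reads per control library as the floor. The groups did not overlap, and no other annotated exon covers Rnf43 exons on either strand. The adjusted p was 0.118 with edgeR and 0.000155 with the DESeq2 Wald test. A count of 20 or more in the knockout with 0 in both controls was seen for 207 genes, 1.24% of those in both tables, so the pattern is shared with many other genes. In the authors' deposited tables Rnf43 is marked as higher against both controls.

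RefSeq gives Rnf43 2 starts on GRCm38.p6, at 87663087 and 87699897. The 250 bases before each start are shown because this gene carries the widest difference in the set, with CpG pairs in capitals. The first window is chr11:87662837-87663086 and the second is chr11:87699647-87699896, both on the plus strand. Both lie within the gene as deposited, which begins at 87662722.
Rnf43, first start: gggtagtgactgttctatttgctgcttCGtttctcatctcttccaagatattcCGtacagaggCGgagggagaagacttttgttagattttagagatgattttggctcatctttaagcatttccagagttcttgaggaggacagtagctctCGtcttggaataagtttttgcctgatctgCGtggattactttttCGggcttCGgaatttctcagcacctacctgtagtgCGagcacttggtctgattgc
Rnf43, second start: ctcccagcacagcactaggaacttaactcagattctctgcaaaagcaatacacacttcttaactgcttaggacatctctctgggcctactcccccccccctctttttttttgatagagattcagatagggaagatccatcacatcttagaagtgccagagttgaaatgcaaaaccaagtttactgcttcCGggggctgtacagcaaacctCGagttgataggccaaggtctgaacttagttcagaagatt
They hold 8 and 2 CpG pairs and have GC contents of 44.4% and 45.2%. Windows of 300 bases, which run on past the start, held a median of 24 CpG pairs over the genes of the set and 7 over all RefSeq windows. The Rnf43 windows of that length held 10 and 3. Neither holds any of the TCF/LEF core letters CTTTGAA or CTTTGAT or CTTTGTA or CTTTGTT on either strand. Of the 45 RefSeq promoter windows of 300 bases found for 33 genes of the set, 6 held such a match (13.3%), as did 16.9% of all 32851 windows. The 6 belong to Fzd7, Lef1, Wnt5b, Gsk3a, Wnt11 and Tcf7l2. Of the 10 genes 2-fold or more from both controls, 7 had a window and none of those windows held a match.

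Znrf3, the paralog of Rnf43 with the same role, had 305 knockout reads, with 282 and 187 in controls 5 and 6, or 16.7 CPM in the knockout and 14.8 ± 1.34 CPM in controls (SD, n = 2). All 3 libraries were close, with a log2 fold change of 0.17 (SE 0.62, adjusted p = 1.00). In level per length, Znrf3 had 2.11 reads per kilobase of exon, scaled to depth as CPM are (RPKM), and Rnf43 had 2.35 RPKM in the knockout library, while in controls Znrf3 had 1.87 ± 0.170 RPKM (SD, n = 2) and Rnf43 had 0 reads. The paralogs were therefore at a like level in the knockout library and apart in the controls.

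Lgr4, the R-spondin receptor that acts against Rnf43 and Znrf3, lay on the other side. It had 32 knockout reads, with 140 and 167 in controls 5 and 6, or 1.75 CPM in the knockout and 10.1 ± 3.22 CPM in controls (SD, n = 2). The log2 fold change of -2.52 (SE 1.01) did not pass (adjusted p = 0.803), though the knockout was below both controls. The other R-spondin receptors, Lgr5 and Lgr6, were not analysed here. The 250 bases before the Lgr4 start (chr2:109917397-109917646, plus strand) are given for comparison, as the gene with the widest difference downward at over 5 CPM in controls, with CpG pairs in capitals.
Lgr4: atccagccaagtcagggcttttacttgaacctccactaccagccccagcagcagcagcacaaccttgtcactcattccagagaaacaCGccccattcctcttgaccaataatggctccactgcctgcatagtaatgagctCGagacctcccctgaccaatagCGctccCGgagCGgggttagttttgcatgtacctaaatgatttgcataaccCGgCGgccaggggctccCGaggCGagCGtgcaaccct
This window held 10 CpG pairs and 55.6% GC.

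**Figure D2:**
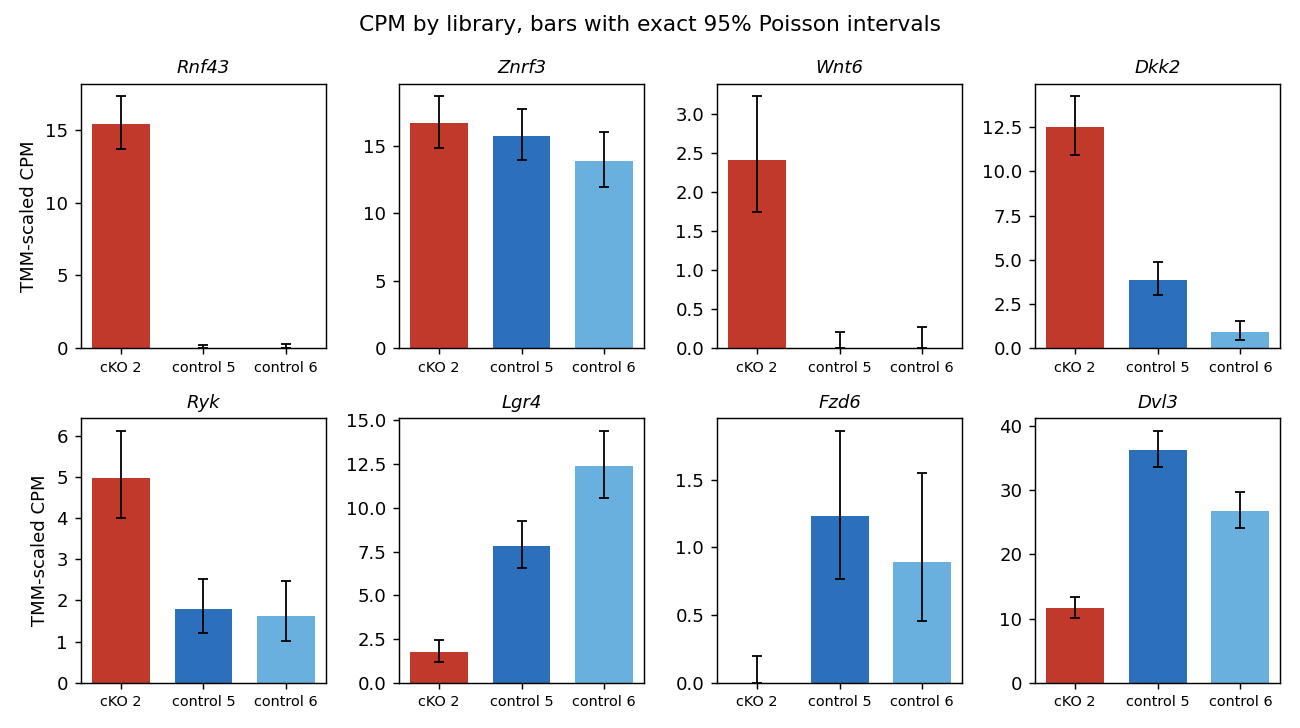
TMM-scaled CPM in each library for 8 Wnt pathway genes, with the knockout bar left of control 5 and control 6 and exact 95% Poisson intervals, which cover counting error only. Rnf43 and Wnt6 are seen in the knockout library alone, Znrf3 is level across libraries, and Lgr4, Fzd6 and Dvl3 are lowest in the knockout.

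The receptor most abundant per length was Lrp6, a co-receptor that passes the Wnt signal to Axin. It had 1156 knockout reads, with 1966 and 1045 in controls 5 and 6. That was 4.62 RPKM in the knockout against 6.84 ± 1.67 RPKM in controls (SD, n = 2), and its paralog Lrp5 had 0.286 RPKM in the knockout against 0.312 ± 0.0851 RPKM in controls. Among Frizzled receptors Fzd4, which also binds norrin, was the highest per length in every library. It had 181 knockout reads, with 148 and 173 in controls 5 and 6, or 1.47 RPKM in the knockout library against 1.57 ± 0.479 RPKM in controls. Fzd7 had 0.531 RPKM in the knockout against 0.509 ± 0.250 RPKM in controls. In these receptors the knockout lay within or close to the range of the controls. Lrp6, Lrp5, Fzd4 and Fzd7 had log2 fold changes of -0.57, -0.12, -0.09 and 0.06 (SE 0.43, 1.41, 0.75 and 1.60), and none passed.

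Ryk, an atypical Wnt receptor with an inactive kinase domain, stood 2-fold or more above both controls. It had 91 knockout reads, with 32 and 22 in controls 5 and 6, or 4.98 CPM in the knockout and 1.71 ± 0.111 CPM in controls (SD, n = 2). The controls were close to each other and the knockout above both, but the log2 fold change of 1.54 (SE 1.38) did not pass (adjusted p = 1.00). Fzd6 had 0 knockout reads, with 22 and 12 in controls 5 and 6, at least 6.45-fold lower with 3 knockout reads as the floor (adjusted p = 0.956). Ror2, a receptor tyrosine kinase for Wnt5a, had 13 reads in the knockout library and 0 in each control, at least 3.65-fold higher, and was too low to be tested.

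For the remaining Frizzled genes the controls disagreed or reads were few. Fzd1 had 25 knockout reads, with 48 and 0 in controls 5 and 6. Fzd2 had 10 knockout reads, with 0 and 18 in controls 5 and 6, and Fzd3 had 7 in the knockout, with 29 and 8 in the controls. Fzd5, Fzd8 and Fzd9 had 1 read each in the knockout library and at most 2 in control 6. No difference in these 6 receptors was detectable at this depth.

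Wls, the carrier that brings Wnt proteins to the cell surface, was among the most abundant genes of the set. It had 5560 knockout reads, with 5180 and 3664 in controls 5 and 6, or 304 CPM in the knockout and 280 ± 12.6 CPM in controls (SD, n = 2). The log2 fold change was 0.12 (SE 0.35, adjusted p = 1.00). Porcn, the acyltransferase of the same route, had 32 knockout reads, with 0 and 1 in controls 5 and 6. The knockout was above both controls, at a ratio of 55.0 over the pooled controls (exact interval for the counts 9.19 to 2240), and the adjusted p was 0.956. Porcn had 0.583 RPKM in the knockout library where Wls had 34.6 RPKM.

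Wnt ligand genes were low in all 3 libraries. Wnt6 had 44 reads in the knockout library and 0 in each control, 2.41 CPM (1.75 to 3.23, exact Poisson bounds) and at least 12.4-fold higher (adjusted p = 0.821). Wnt4 had 13 reads in the knockout library and 0 in each control, at least 3.65-fold higher, and Wnt2b had 18 knockout reads, with 0 in control 5 and 4 in control 6. For Wnt6, Wnt4 and Wnt2b the knockout was above both controls, where it was the highest library for 38.0% of all genes tested. These genes have values mainly through their knockout reads, so their order gives no support for a direction. Wnt5a, the best known ligand of beta-catenin-independent signalling, had 25 knockout reads, with 70 and 0 in controls 5 and 6, so the knockout lay between the controls. Wnt5b had 0 reads in the knockout library and 12 in control 6.

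The window before the Wnt6 start (chr1:74771642-74771891, plus strand) is set beside those of Rnf43 because both genes had 0 reads in both controls, with CpG pairs in capitals.
Wnt6: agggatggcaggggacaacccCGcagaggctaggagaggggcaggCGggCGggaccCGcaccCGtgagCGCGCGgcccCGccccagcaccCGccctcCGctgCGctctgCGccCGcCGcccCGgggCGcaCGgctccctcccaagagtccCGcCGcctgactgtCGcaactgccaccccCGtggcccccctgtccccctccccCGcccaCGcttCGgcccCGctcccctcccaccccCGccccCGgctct
It held 28 CpG pairs and 79.6% GC, so the windows shown for these genes do not share a base composition.

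Markers of other cells that such a sort could hold were read beside these genes, as summed levels and with the most divergent genes of each list. Of 12 neural progenitor markers, 10 had a value and summed to 218 CPM in the knockout beside 147 and 174 CPM in controls 5 and 6, with Emx2 at 0 in both controls and Sox1 and Dlx2 at 0 in control 5. That order rested on Vim, which other cells share and which had 102 CPM in the knockout beside 36.5 and 18.4 CPM in the controls. Without Vim the sum was 116 CPM in the knockout beside 111 and 156 CPM in the controls, so the knockout lay between them. Slc1a3 was lowest in the knockout, at 3.34 CPM beside 7.76 and 14.9 CPM, while Nes (96.9 CPM in the knockout) and Dlx1 (5.91 CPM) lay between the controls.

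Of 10 markers of other myeloid cells, 8 had a value and summed to 277 CPM in the knockout beside 169 and 235 CPM in controls 5 and 6, with Cpa3, Mpo and Prtn3 at 0 in control 5. Siglecf set that order, with 119 CPM in the knockout beside 21.7 and 57.9 CPM in the controls, and without it the sum was 158 CPM beside 147 and 177 CPM, again between the controls. Mpo and Cpa3 were also highest in the knockout, at 12.1 CPM beside 0 and 5.85 CPM and at 23.1 CPM beside 0 and 13.7 CPM. Ccr2 was lowest in the knockout, at 92.9 CPM beside 120 and 138 CPM. Of these 8 myeloid markers, the knockout was highest for 4, lowest for 1 and between the controls for 3. Of 10 endothelial markers, 9 had a value, Tek of these not in control 6, and they summed to 28.8 CPM in the knockout beside 46.7 and 41.1 CPM in the controls. Here Pecam1 set the order, with 3.88 CPM in the knockout beside 20.5 and 27.2 CPM in the controls, and without it the sum was 24.9 CPM beside 26.2 and 13.8 CPM. The place of the knockout in that sum depends on Tek, at 0.0547 CPM in the knockout and 4.46 CPM in control 5. Tie1 and Cdh5 were also lowest in the knockout, at 0.219 CPM beside 2.96 and 4.59 CPM and at 0.656 CPM beside 1.95 and 2.44 CPM. Kdr went the other way, at 14.3 CPM in the knockout beside 7.31 and 6.52 CPM. So did Cldn5, at 0 in control 6, and Esam and Sox17, at 0 in both controls. Of the 7 endothelial markers tested, the knockout was highest for 3, lowest for 3 and between the controls for 1.

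All 12 neuronal markers had a value and summed to 158 CPM in the knockout beside 223 CPM in each control, with Tbr1 at 0 in control 5. Neurod6, Bcl11b and Map2 were each lowest in the knockout. Without Neurod6 the sum was still lowest there, at 116 CPM beside 141 and 158 CPM. Single neuronal markers were mixed, with the knockout lowest for 6, highest for 4 and between the controls for 2. Stmn2, for example, was highest in the knockout, at 9.24 CPM beside 3.01 and 7.26 CPM. Of 10 markers of mural cells and fibroblasts, 4 had a value, led by Rgs5, and summed to 13.1 CPM in the knockout beside 12.5 and 15.6 CPM in the controls, with Cspg4 at 0 in the knockout, Acta2 at 0 in both controls and Pdgfrb at 0 in control 5. Of 8 erythroid markers, 6 had a value, led by Hba-a1, and summed to 40.9 CPM in the knockout beside 37.7 and 46.5 CPM in the controls. The knockout lay between the controls in both of these sums. No marker in these 6 lists passed the test, and the part of such cells in the values of Wnt6, Wnt4, Ror2 and Dkk2 was not tested.

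Dishevelled proteins carry the signal from Frizzled to the destruction complex. Dvl3 had 213 knockout reads, with 650 and 361 in controls 5 and 6, or 11.7 CPM in the knockout and 31.5 ± 6.75 CPM in controls (SD, n = 2). Both controls lay above the knockout, with a log2 fold change of -1.43 (SE 0.58, adjusted p = 0.811). Dvl2 had 225 knockout reads, with 1 and 197 in controls 5 and 6, which placed the knockout beside control 6 and far above control 5. The log2 ratio for Dvl2 was 6.14 over control 5 and -0.24 over control 6. A level of at most 1 read in control 5 with 20 or more in each other library was found for 2.6% of genes in both tables. Opposite-strand exons cover 18.3% of Dvl2 exon bases, and the kit does not mark strand. Dvl1 had 4.59 CPM in the knockout and 3.56 ± 0.932 CPM in controls.

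The destruction complex and beta-catenin held some of the most abundant transcripts of the set, and none of its tested genes lay 2-fold from both controls. Csnk1a1, the kinase that primes beta-catenin, had the highest mean level per length in the set, with 8169 knockout reads beside 6986 and 6578 in controls 5 and 6, or 42.5 RPKM in the knockout against 41.7 ± 6.54 RPKM in controls (SD, n = 2). Ctnnb1 had 2365 knockout reads, with 2314 and 1455 in controls 5 and 6, a log2 fold change of 0.13 (SE 0.38). Beta-catenin transcript was thus level across libraries at 129 CPM in the knockout and 118 ± 15.1 CPM in controls, with 14.6% of its exon bases under opposite-strand exons. Axin1, the scaffold, had 11.3 CPM in the knockout against 8.36 ± 0.725 CPM in controls, and Apc, the tumour suppressor that holds beta-catenin in the complex, had 41.7 CPM in the knockout against 55.9 ± 16.9 CPM in controls.

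Gsk3b, the kinase that marks beta-catenin for destruction, differed more between the 2 controls than between the knockout and control 6. It had 4032 knockout reads, with 9624 and 3582 in controls 5 and 6, or 221 CPM in the knockout beside 537 and 265 CPM in the controls. The knockout was the lowest library, by a log2 ratio of -1.28 over control 5 and -0.27 over control 6 (adjusted p = 0.931). Its paralog Gsk3a had 8 knockout reads, with 3 and 9 in controls 5 and 6, too few for a comparison. Per length, Gsk3b had 22.4 RPKM and Gsk3a 0.151 RPKM in the knockout library, against 40.8 ± 19.6 and 0.144 ± 0.122 RPKM in controls (SD, n = 2), so Gsk3b was by far the higher of the pair in every library. Opposite-strand exons cover 28.3% of Gsk3a exon bases.

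**Figure D3:**
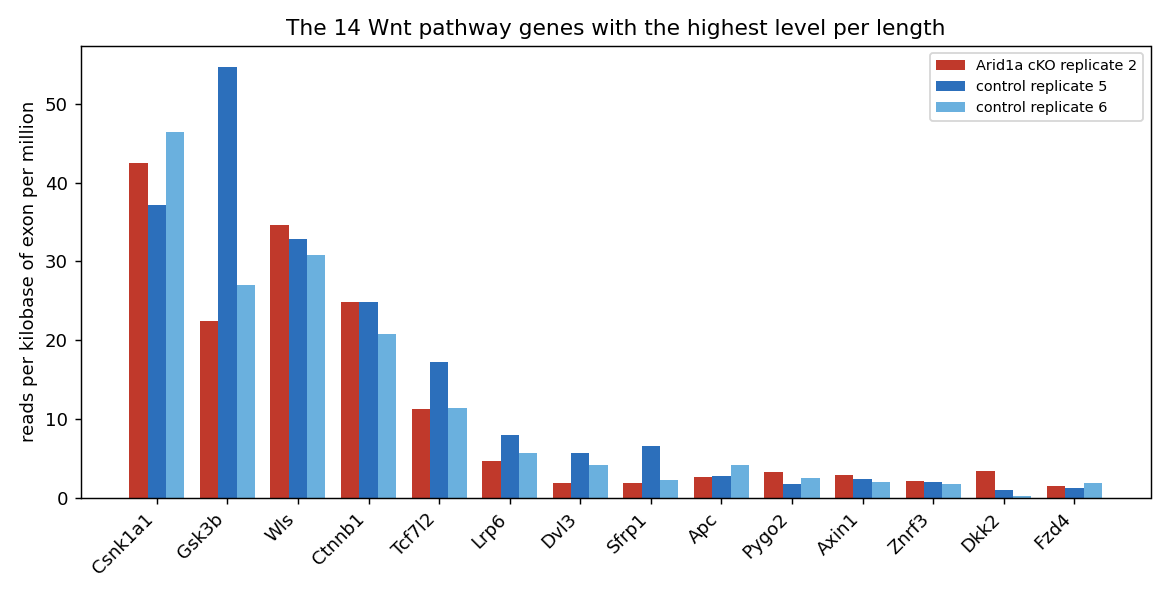
Level per length (RPKM, TMM-scaled CPM per kilobase of exon) of the 14 Wnt pathway genes with the highest mean level, with the knockout bar left of controls 5 and 6. Csnk1a1, Gsk3b, Wls, Ctnnb1 and Tcf7l2 are above all receptors, and for Gsk3b the controls differ from each other more than the knockout differs from control 6.

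Of the TCF/LEF factors, which bind DNA and take beta-catenin to its targets, Tcf7l2 was the main one. It had 1799 knockout reads, with 2705 and 1348 in controls 5 and 6, or 98.4 CPM in the knockout and 151 and 99.8 CPM in the controls. The knockout was close to control 6 and below control 5, at a log2 fold change of -0.35 (SE 0.43). Per length, Tcf7l2 had 11.2 RPKM in the knockout library, where Tcf7 had 1.52, Tcf7l1 had 0.0418 and Lef1 had 0.0622. Tcf7 had 73 knockout reads, with 127 and 0 in controls 5 and 6, so its 2 controls lay on both sides of the knockout. Lef1 had 10 knockout reads, with 0 and 2 in controls 5 and 6, and Tcf7l1 had 3 in the knockout, with 17 and 1 in the controls. The set has a pattern of this kind in control 6 more than once, since Tcf7, Wnt5a and Fzd1 were at 0 there with 20 or more reads in each other library. Among genes in both tables, 49 had that pattern at 0 reads, and 0.366% had it at 0 or 1 read.

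None of the beta-catenin co-activators lay 2-fold from both controls. Pygo2, which reads histone marks for the complex, had 218 knockout reads, with 115 and 121 in controls 5 and 6, or 11.9 CPM in the knockout and 7.69 ± 1.80 CPM in controls (SD, n = 2), with log2 fold change 0.63 (SE 0.77). The adaptors Bcl9 and Bcl9l, which link beta-catenin to Pygo proteins, had 10.1 and 8.86 CPM in the knockout library against 13.9 ± 0.370 and 13.4 ± 4.01 CPM in controls. The knockout was highest for Pygo2 and lowest for both adaptors. All 3 genes had an adjusted p of 1.00, and opposite-strand exons cover 9.65% of Bcl9l exon bases.

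Among secreted and intracellular antagonists, the Dickkopf genes stood above both controls. Dkk2, which binds Lrp co-receptors, had 229 knockout reads, with 69 and 12 in controls 5 and 6, or 12.5 CPM in the knockout and 2.37 ± 2.09 CPM in controls (SD, n = 2). Its log2 fold change of 2.39 (SE 1.09) did not pass (adjusted p = 0.863), and the log2 ratio was 1.67 over control 5 and 3.65 over control 6. Dkk3, a divergent member of the family, had 45 knockout reads, with 0 and 11 in controls 5 and 6. Its log2 ratio of 4.42 over control 5 and 1.47 over control 6 was wider over control 5, where it had 0 reads.

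The 250 bases before the Dkk2 start (chr3:132085042-132085291, plus strand) are given as the antagonist with the most knockout reads above both controls, with CpG pairs in capitals.
Dkk2: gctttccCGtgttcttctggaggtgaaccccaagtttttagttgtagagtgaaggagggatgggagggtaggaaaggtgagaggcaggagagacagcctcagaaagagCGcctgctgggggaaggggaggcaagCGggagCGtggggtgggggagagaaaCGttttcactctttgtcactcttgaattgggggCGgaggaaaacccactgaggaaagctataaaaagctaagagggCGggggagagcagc
This window held 7 CpG pairs and 55.6% GC.

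Sfrp1, a secreted protein that binds Wnt ligands, differed more between the 2 controls than between the knockout and control 6. It had 145 knockout reads, with 511 and 133 in controls 5 and 6, so the knockout lay below both once scaled, at 7.93 CPM beside 28.5 and 9.85 CPM in the controls (adjusted p = 0.959). Kremen1, a partner of Dickkopf proteins, had 62 knockout reads, with 24 and 85 in controls 5 and 6, so the knockout lay between the controls. Nkd1, a feedback inhibitor that acts on Dishevelled, had 12 reads in the knockout library and 0 in each control, at least 3.37-fold higher, and was too low to be tested.

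The authors' deposited tables compare the same libraries 1 against 1, without replicates, and mark a gene where p was under 0.01 and the fold over 3. Against control 5 those tables marked 13 of the 40 listed genes of the set as higher and 5 as lower, where 21.7% and 7.75% of all genes were marked. Against control 6 the counts in the authors' deposited table were 13 of 44 higher and 3 lower, where 10.1% and 8.6% of all genes were marked. Marked as higher against both controls in the authors' deposited tables were 10 genes, Rnf43, Ryk, Ror2, Porcn, Wnt2b, Wnt4, Wnt6, Nkd1, Dkk2 and Dkk3, where 7.61% of shared genes were. Marked as lower against both in the authors' deposited tables were Lgr4 and Fzd6, where 2.94% were. The deposited p-values do not measure the spread between animals, and both tables share the knockout library.

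The wider pathway was read from a list of 91 other Wnt components. Of these 63 were tested, and none passed (edgeR, adjusted p). At an unadjusted p under 0.05, 1 was higher and 4 were lower in the knockout, where 2.46% and 3.54% of all genes tested were, and the median log2 fold change was 0.02 beside 0.05 over all genes tested. Tle3, a Groucho co-repressor of TCF factors, had 73.9 CPM in the knockout and 35.7 ± 5.07 CPM in controls (SD, n = 2), above both controls. Tbl1xr1, a co-factor of beta-catenin transcription, had 41.5 CPM in the knockout against 95.4 ± 11.2 CPM in controls, below both. The deubiquitinase Usp8 had 231 CPM in the knockout against 489 ± 104 CPM in controls, and the acetyltransferase Crebbp had 142 CPM in the knockout against 262 ± 28.1 CPM in controls. The knockout was below both controls for each, and the adjusted p of these 4 genes ran from 0.713 to 0.821.

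A list of 40 genes known as Wnt and beta-catenin targets in various tissues had 24 tested genes, 4 of them in the set above. None passed (edgeR, adjusted p), the median log2 fold change was 0.18 beside 0.05 over all genes tested, and the knockout was the highest library for 11 and the lowest for 5, where 38.0% and 31.1% of all genes tested were. Without adjustment, at p under 0.05, Rnf43, Ccnd1 and Myc (3 genes) were on the higher side and Plaur (1 gene) on the lower, where 2.46% and 3.54% of all genes tested were. Ccnd1, the G1 cyclin, had 3462 knockout reads, with 980 and 946 in controls 5 and 6, or 189 CPM in the knockout and 62.4 ± 10.9 CPM in controls (SD, n = 2). Its log2 fold change was 1.60 (SE 0.38, adjusted p = 0.348).

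The growth regulator Myc had 254.5 CPM in the knockout and 117 ± 5.69 CPM in controls (SD, n = 2), with log2 fold change 1.13 (SE 0.35, adjusted p = 0.592). Plaur, the urokinase receptor, had 72.7 CPM in the knockout and 209 ± 27.5 CPM in controls, a log2 fold change of -1.52 (SE 0.40, adjusted p = 0.435). For each of these 3 genes the controls were close to each other and the knockout lay outside both. Many signals other than Wnt act on Ccnd1 and Myc, and of the targets closest to the pathway, Axin2, Notum, Sp5 and Lgr5 were not analysed here.

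**Figure D4:**
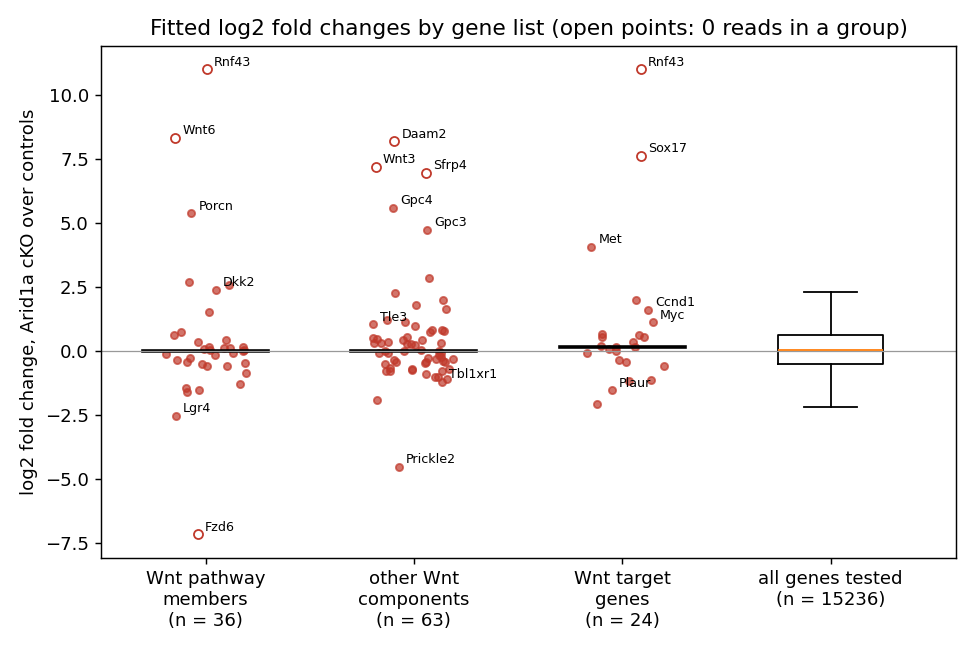
Fitted log2 fold change, knockout over controls, of the 36 Wnt pathway genes, 63 other Wnt components and 24 Wnt target genes (points, black line the median) beside all 15236 genes tested (box from first to last quartile, whiskers to 1.5 times that range, outliers not drawn). Open points have 0 reads in a group, so their fitted value depends on the prior count and is no bound. All 3 medians lie near 0.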

How the data were processed

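Microglia RNA was sequenced and, the submitters' processing notes name HTSeq 0.6.0, TopHat2 2.0.12, Bowtie2 2.2.3 and the build mm9. The deposited gene positions are instead identical to GENCODE M21 on GRCm38 for 89.9% of matched genes, so GRCm38 is given. The authors deposited raw read counts per gene in 2 tables (knockout 2 with control 5, knockout 2 with control 6), together with CPM, p-values and a fold change, given both as a ratio and as log2. The test behind the deposited p-values is not given in the sources used here. Knockout counts were identical in both tables.

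Counts of the 16655 shared genes were fitted with edgeR 4.0.16 in R 4.3.3 (filterByExpr, TMM, quasi-likelihood F test, two-sided, Benjamini-Hochberg over 15236 genes, threshold 0.05, common dispersion 0.438). The script was tested on simulated data. SE is the log2 fold change over the root of F. For log2 ratios of single libraries, 2 reads were added as a prior count. Levels per length used merged GENCODE M21 exons, and sequences are RefSeq, GRCm38.p6. Poisson intervals and the floor of 3 reads per library cover counting error only, since duplicate reads are not independent molecules.

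The members and gene lists were chosen with earlier results of these data known. Named in every library were genes passing the test, genes at 1 CPM or more that lay 2-fold from both controls, genes with 0 reads in a group and 20 or more in the other, and the 2 highest per length of each role. From other lists up to 4 genes with the smallest p at 5 CPM or more were named, markers at 0 reads in a library were added, and further genes were added after their values were seen. Alternatives were DESeq2 1.42.0 size factors and Wald test, upper-quartile factors, other filters, genes of either table with missing counts at 0, and leaving out each control.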

Additional observations from a re-analysis of the deposited data

How the results depend on the processing

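Over all genes, edgeR called 6, and 0 with DESeq2 size factors, with upper-quartile factors or without a low-count filter, 44 where 5 CPM in at least 2 libraries was required, 10 with genes of either table and 223 with the DESeq2 Wald test. No Wnt pathway gene was called in any edgeR setting, and 1 was by the Wald test, Rnf43 (adjusted p = 0.000155, against 0.087 to 0.350 in the edgeR settings that kept it). With at least 5 CPM in 2 libraries, 2 genes of the set had an unadjusted p under 0.05 (4 in the main setting), 2 lay 2-fold from both controls (10 in the main setting) and the median log2 fold change was -0.34. With 1 control left out, 14 to 18 genes lay 2-fold from the remaining control and the median ran from -0.07 to 0.14. These are values with no test, since no residual degree of freedom is left. For these settings and for the 5 CPM filter, no 2-fold share and no median over all genes is given. Their counts and medians therefore give no support for a direction. Without control 5, log2 fold changes were 3.81 for Dkk2, 1.59 for Dkk3, -0.27 for Gsk3b and -0.31 for Sfrp1. Without control 6 they were 1.70 for Dkk2, 7.62 for Dvl2 and 8.48 for Dkk3. Control 5 held 1 read of Dvl2 and 0 of Dkk3, so these fitted values for Dvl2 and Dkk3 depend on the prior count and are no bound. At a prior count of 2 reads, the log2 ratio over control 5 was 6.14 for Dvl2 and 4.42 for Dkk3. Of 18 genes followed through the alternatives, 3 changed sign, Csnk1a1 (-0.12) and Dvl2 (-0.24) without control 5 and Fzd4 (0.27) without control 6. With a prior count of 0.5, chosen after seeing the data, 10 genes lay 2-fold from both controls. A smaller prior count only widens these ratios, so that count could not fall and is no check on genes with few reads. Marker sums without the gene of smallest p, likewise chosen after seeing the data, put the knockout between the controls for neural progenitors, other myeloid and endothelial cells. For endothelial cells that place depends on Tek, which has no value in control 6. No paired analysis was possible because the groups share no replicate number. Depth limits the ligand and most Frizzled genes, at under 100 reads in each library.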
